A study of Mus musculus with 18 samples.

Results

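The 42 genes described here encode the protein-folding machinery of the endoplasmic reticulum (ER) and the factors of its 3 stress branches, PERK, IRE1 and ATF6. They were listed by gene symbol and not by measured values, and all 42 matched an identifier among the 47643 genes of the count table. All 42 also had enough counts to be tested, among 14309 genes that did. RNA was measured in the mouse prostate cancer line MPC3, in 18 libraries that form 3 groups of 6. The control libraries carry "plko" in their titles, and the other libraries carry 1 of 2 short hairpin RNAs against Rnf185, shRNF185.1 or shRNF185.3. Such hairpins are made by the cell from an introduced vector and cut down the messenger whose sequence they match. No other treatment or time point is given, and the labels do not say what the control vector expresses. Each of 3 batches holds 2 libraries of every group, and the labels do not say whether replicates were separate cultures, so p-values measure the spread between these libraries, which may be technical.

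Secreted and membrane proteins enter the ER through the SEC61 translocon and fold there with the help of chaperones, lectins and disulfide isomerases. Unfolded protein is sensed by 3 membrane proteins. IRE1 (encoded by Ern1) splices the Xbp1 messenger, ATF6 is cleaved to a transcription factor, and PERK (Eif2ak3) phosphorylates the initiation factor eIF2α, which lowers translation in general and raises that of ATF4. XBP1 and ATF6 act on chaperone and degradation genes, while ATF4 acts on genes of amino acid supply and on Ddit3, which encodes the factor CHOP. Rnf185 codes for a RING-type ubiquitin ligase in the ER membrane, with a part in ER-associated protein degradation. Splicing of Xbp1, cleavage of ATF6, phosphorylation and translation are not visible in counts per gene.

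The promoters are shown first, because the factors of the 3 branches act through short DNA elements. In the RefSeq table (GRCm38.p6), 36 of the 42 genes had a window of 250 bases before to 50 after a start site. Both strands were searched for 4 motifs. The ER stress element, which is CCAAT, then any 9 bases, then CCACG, is bound by NF-Y with ATF6 or XBP1. Its letters were in windows of 7 of the 36 genes (19.4%). Counted by window, they were in 7 of the 39 windows of these genes and in 0.119% of all 32851 windows. This consensus was first drawn from promoters of such chaperone genes, so its presence in them is not independent. Each site is printed with the motif in capitals, on the strand that reads CCAAT first.
Hspa5, chr2:34772017-34772051: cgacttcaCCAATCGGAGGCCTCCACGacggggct
Calr, chr8:84847067-84847101: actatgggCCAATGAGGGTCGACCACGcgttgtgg
Hsp90b1, chr10:86705630-86705664: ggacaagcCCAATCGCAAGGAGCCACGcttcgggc
Hsp90b1, chr10:86705525-86705559: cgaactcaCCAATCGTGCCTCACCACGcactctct
Canx, chr11:50325792-50325826: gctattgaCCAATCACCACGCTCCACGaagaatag
Pdia6, chr12:17266483-17266517: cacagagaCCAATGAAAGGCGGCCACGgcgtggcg
Dnajc3, chr14:118937819-118937853: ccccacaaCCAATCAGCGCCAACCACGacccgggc
Creld2, chr15:88819512-88819546: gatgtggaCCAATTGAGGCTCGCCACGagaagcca

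The second form of the element, which is ATTGG, any base and CCACG, was in 1 of the 36 genes, Dnajb11, and in 0.037% of all windows. The core TGACGTGG, which XBP1 and ATF6 can bind, was in 1, Txndc5, and in 0.676% of all windows. The core of the composite element of ATF4 and C/EBP factors, TGATGNAA, was in 5 genes (13.9%). By window it was in 5 of 39 and in 3.969% of all windows. The sites are given so that the letters can be set beside the values of these genes, and capitals again mark the motif. Txndc5 was the only member with letters of more than 1 of the 4 motifs, in windows of different start sites, so no printed sites overlap.
Dnajb11, second ER stress element, chr16:22857844-22857870: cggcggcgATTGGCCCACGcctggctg
Txndc5, TGACGTGG, chr13:38528037-38528060: ctcgccgcTGACGTGGcgctagcc
Txndc5, TGATGNAA, chr13:38528914-38528937: agggggtgTGATGAAAccacttcc
Chac1, TGATGNAA, chr2:119351041-119351064: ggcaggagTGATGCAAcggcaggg
Trib3, TGATGNAA, chr2:152344031-152344054: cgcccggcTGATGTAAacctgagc
Asns, TGATGNAA, chr6:7693217-7693240: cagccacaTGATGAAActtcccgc
Nupr1, TGATGNAA, chr7:126625565-126625588: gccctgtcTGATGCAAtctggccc

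Facts of the whole series that touch these genes are few. Totals ranged from 22027395 to 43379662 counts per library. Rnf185 lay between 33.6 and 38.4 CPM (counts scaled to library size) in control, while the shRNF185.1 libraries held 5.21 to 6.80 and the shRNF185.3 libraries 5.19 to 6.72, so no library went against its label. Of the epithelial markers, Krt8 and Krt18 were expressed in every library while Epcam stayed at or below 0.291 CPM, and Foxa1 and Hoxb13, of the prostate lineage, were expressed in every library. The 5 epithelial markers summed to 1689 to 2531 CPM in control, 997 to 1745 with shRNF185.1 and 1160 to 1366 with shRNF185.3, and 3 of the 4 tested (Krt8, Krt18, Cdh1) were lower with knockdown. Summed mesenchymal markers, mostly Vim, were 3079 to 4090 CPM in control, 3663 to 4228 with shRNF185.1 and 3792 to 4425 with shRNF185.3. Of the 5 tested, 3 were higher and 1 lower for the mean of both hairpins, from -1.30 for Dcn to 1.74 for Col1a1 on the log2 scale, while Vim had 0.07 (edgeR adjusted p 0.384), and 4 were higher with shRNF185.3 than with shRNF185.1. Of the leukocyte, endothelial and red cell markers, Cd3e and Hbb-bs were at 0 in every library, and Cd68 reached the highest level, 5.04 CPM. The part of these differences in the results below was not tested.

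In control libraries the members spanned a 131.7-fold range of CPM per exonic kilobase, as mean ± SD over 6 libraries. The disulfide isomerase P4hb, also a subunit of collagen prolyl hydroxylase, was highest at 425 ± 95.3. The lectin chaperone Calr followed at 405 ± 28.9, then the chaperones Hsp90b1 at 294 ± 27.3 and Hspa5 (BiP) at 256.5 ± 28.9, and the isomerase Pdia3 at 237 ± 13.5. P4hb and Calr were not separated beyond the sum of their SDs, nor were Hsp90b1 and Hspa5, or Hspa5 and Pdia3, whereas Calr and Hsp90b1 were. The stress sensors were near the bottom: Atf6 stood at 8.32 ± 0.485, Ern1 at 6.61 ± 0.713 and Eif2ak3 at 4.66 ± 0.732. Sesn2, a stress-induced inhibitor of mTORC1 signalling, was lowest at 3.23 ± 0.661, below Eif2ak3 by more than the sum of their SDs.

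The spread between control libraries differed from gene to gene. As an SD in percent of the mean it was 2.71% for Manf and 2.81% for Dnajb11, the lowest values. It was 41.3% for Trib3, 35.4% for Nupr1 and 32.0% for Chac1, the highest. These 3 genes belong to the PERK branch, but so do Atf4, with 6.41%, and Ppp1r15b, with 4.56%, and among the folding genes Sdf2l1 had 28.5% and P4hb 22.4%.

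**Figure D1:**
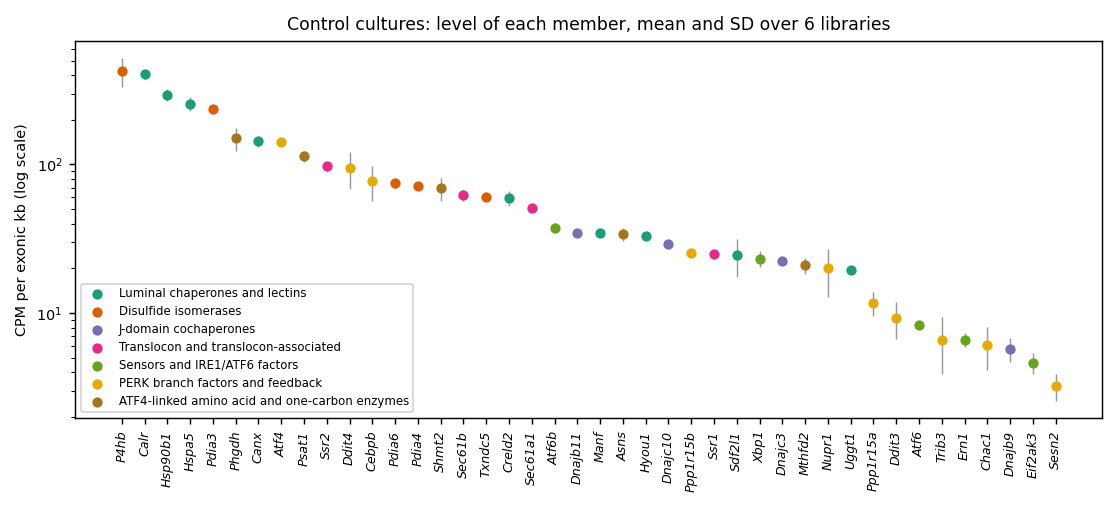
Level of each of the 42 genes in control libraries in CPM per exonic kilobase (log axis), as the mean (points) and SD (bars) of 6 libraries, ordered by level and coloured by functional group. Folding genes such as P4hb (425) and Calr (405) lie at the top, and Eif2ak3 (4.66) and Sesn2 (3.23) at the bottom.

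Knockdown of Rnf185 left most of the 42 messengers close to their control level. A gene was called at an edgeR quasi-likelihood adjusted p under 0.05 (Benjamini-Hochberg, over all 14309 genes). With shRNF185.1, 7 of the 42 (16.7%) were called, 2 higher and 5 lower, while 28.9% of all genes were. With shRNF185.3, 7 were called, 3 higher and 4 lower, while 27.3% of all genes were. For the mean of both hairpins against control, 8 (19.0%) were called, 4 higher and 4 lower, beside 32.9% of all genes. The share called was thus below the background in each of these comparisons, which share the same 6 control libraries.

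The sizes were small as well. The mean change with both hairpins was under 0.25 on the log2 scale in either direction for 37 of the 42, and the median size without sign was 0.0703, beside 0.145 for all genes. The signed median was -0.01, beside -0.02 for all genes. The members were not matched to all genes in expression level, which bears on the size of log2 changes. A mean over batches can also hide opposite effects, which some members had, as described further on. No member was called with a mean change of 0.5 or more. Standard errors of that change ran from 0.03 for Sec61a1 to 0.24 for Trib3, so the power to call a given change differed between members. A correction for GC content and length moved the split of the calls for the mean from 4 and 4 to 4 higher and 7 lower, and that of all called genes from 48.9% to 38.0% higher. For shRNF185.3 it gave 3 higher and 5 lower members and moved all called genes from 51.8% to 36.9% higher, and for shRNF185.1 it gave 2 and 9. Scaling by library size alone gave 5 higher and 3 lower members for the mean and 55.1% higher genes.

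**Figure D2:**
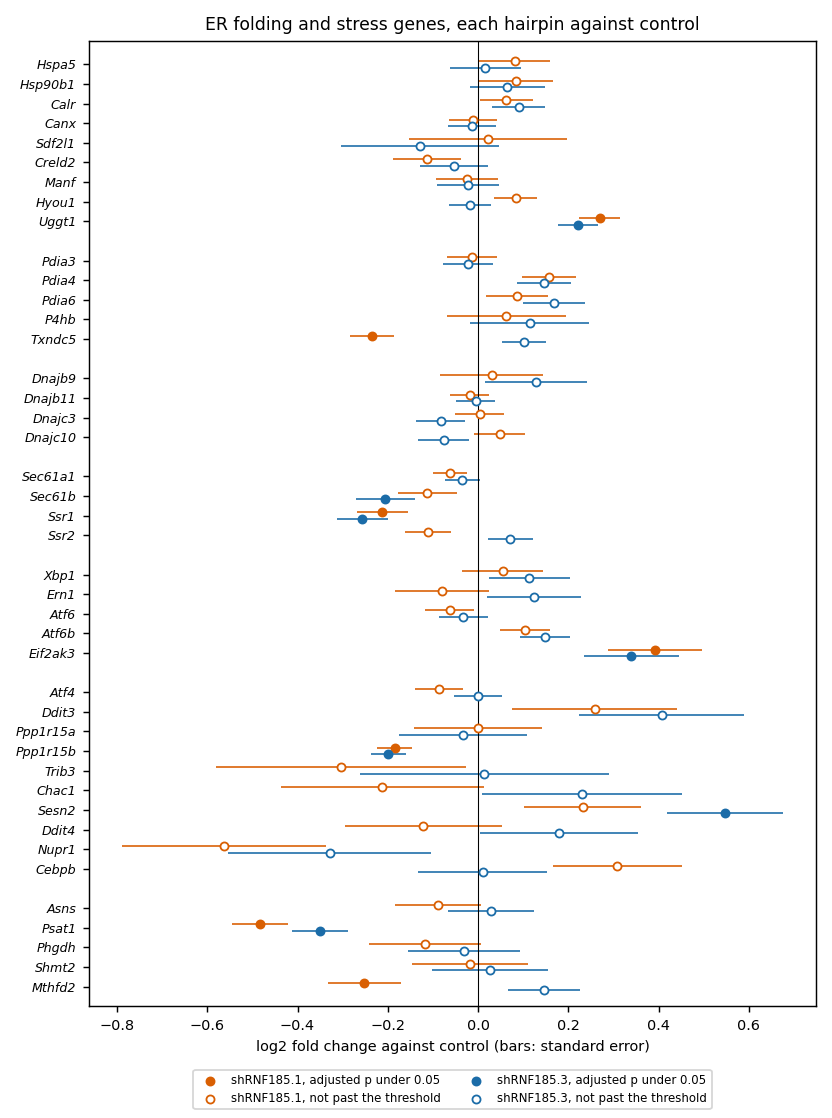
Log2 fold change of each gene with shRNF185.1 (orange) and shRNF185.3 (blue) against control, in functional groups from luminal chaperones (top) to amino acid enzymes (bottom). Bars are standard errors and filled points passed an adjusted p of 0.05. Most points lie within 0.2 of zero, and filled points include Uggt1 and Eif2ak3 to the right and Psat1, Ppp1r15b and Ssr1 to the left.

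Among the 9 luminal chaperones and lectins, 1 rose, Uggt1, and the other 8 were not called in any comparison between groups. Uggt1 encodes the glucosyltransferase that tags unfolded glycoproteins for another round with the lectins Canx and Calr. From the lowest library through the median to the highest, the form used for each gene below, it ran from 234 CPM through 252 to 269 in control, from 284 through 301 to 314 with shRNF185.1, and from 274 through 291 to 312 with shRNF185.3. The lowest of the 12 hairpin libraries was above every control library. Set against control, shRNF185.1 gave a log2 difference of 0.27 (SE 0.04, edgeR adjusted p 0.000165), and shRNF185.3 one of 0.22 (SE 0.04, adjusted p 0.00109). The mean of both was 0.25 (SE 0.04, adjusted p 9.38e-05), a level 18.5% above control, and 0.19, 0.24 and 0.30 in batches 1, 2 and 3. Both lectins it works with stayed near control: Canx was at 0.99 times control (log2 -0.01, adjusted p 0.869) and Calr at 1.05 times (log2 0.08, adjusted p 0.264).

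Hspa5, which encodes BiP, the main luminal Hsp70 and a standard readout of ER stress, was not called. Its libraries ran from 974 CPM through 1061 to 1302 in control, from 998 through 1173 to 1311 with shRNF185.1, and from 1018 through 1072 to 1202 with shRNF185.3. The 3 groups overlapped over most of their range. The mean change was 0.05 (SE 0.07, edgeR adjusted p 0.627), but it was not the same in the 3 batches, as described further on. Without batch 2, Hspa5 was called higher, at 0.17 (adjusted p 0.0322).

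The remaining members of this group also kept within small distances of control. Hsp90b1, the luminal Hsp90, had a mean log2 change of 0.07 (edgeR adjusted p 0.469), and Hyou1, a large Hsp70-like exchange factor, 0.03 (adjusted p 0.573). The secreted stress proteins Manf and Creld2 had -0.02 (adjusted p 0.798) and -0.08 (adjusted p 0.351), and Sdf2l1, a partner of BiP complexes, -0.05 (adjusted p 0.821). None of the 7 genes with the ER stress element printed above was called in a comparison between groups. For the mean of both hairpins, 32.9% of all genes were called. The mean changes of the 7 ran from -0.08 to 0.13.

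Of the 5 disulfide isomerases, Pdia4 was called higher for the mean of both hairpins and Txndc5 lower with shRNF185.1. Pdia4 ran from 159 CPM through 172 to 186 in control, from 173 through 191 to 216 with shRNF185.1, and from 177 through 189 to 208 with shRNF185.3. The highest control libraries overlapped the lower part of both hairpin groups. The mean change was 0.15 (SE 0.05, edgeR adjusted p 0.0302), with 0.16 (adjusted p 0.0533) and 0.15 (adjusted p 0.076) for the single hairpins. The call was lost in 6 of 14 alternative analyses, among them without batch 1 (0.15, adjusted p 0.173) and without batch 3 (0.08, adjusted p 0.362).

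Txndc5, a thioredoxin-domain isomerase of the ER, differed between the hairpins more clearly than any other member. It ran from 245 CPM through 272 to 288 in control, from 220 through 228 to 255 with shRNF185.1, and from 267 through 292 to 313 with shRNF185.3. The 2 hairpin groups did not overlap each other, and the control libraries overlapped both. Set against control, shRNF185.1 gave a log2 difference of -0.23 (SE 0.05, edgeR adjusted p 0.00122), and shRNF185.3 one of 0.10 (SE 0.05, adjusted p 0.131). The difference, shRNF185.3 minus shRNF185.1, was 0.34 (SE 0.05, adjusted p 9.36e-05), and 0.37, 0.35 and 0.29 in batches 1, 2 and 3. Without batch 1 the fall with shRNF185.1 was -0.20 (adjusted p 0.0773). Exons on the opposite strand overlap 11.9% of its exonic bases, and whether counting used strand is not given in the sources used here.

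The other isomerases were not called. Pdia3, the lectin-bound isomerase ERp57, had a mean change of -0.02 (edgeR adjusted p 0.815) and Pdia6 of 0.13 (adjusted p 0.11). P4hb had 0.09 (adjusted p 0.597) and is taken up with the batches. The 4 J-domain cochaperones, which hand substrates to BiP, had no call: Dnajb9 had 0.08 (adjusted p 0.579), Dnajb11 -0.01 (adjusted p 0.846), Dnajc3 -0.04 (adjusted p 0.561) and Dnajc10 -0.01 (adjusted p 0.852).

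Of the 4 translocon genes, Ssr1 and Sec61b were lower. Ssr1 encodes the alpha subunit of the translocon-associated protein complex. Its level ran from 239 CPM through 258 to 291 in control, from 200 through 226 to 239 with shRNF185.1, and from 201 through 213 to 242 with shRNF185.3. All shRNF185.1 libraries and 5 of 6 shRNF185.3 libraries lay below the lowest control library. The mean change was -0.23 (SE 0.05, edgeR adjusted p 0.00106), with -0.21 (SE 0.06, adjusted p 0.00781) and -0.26 (SE 0.06, adjusted p 0.0022) for the single hairpins. Without batch 3 the fall with shRNF185.1 was -0.14 and not called (adjusted p 0.139).

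Sec61b, the small beta subunit of the SEC61 channel, ran from 71.8 CPM through 77.9 to 91.3 in control, from 66.0 through 71.6 to 82.1 with shRNF185.1, and from 62.2 through 67.0 to 74.98 with shRNF185.3. The groups overlapped, with the shRNF185.3 libraries lowest. The mean change was -0.16 (SE 0.06, edgeR adjusted p 0.0359) and that with shRNF185.3 -0.21 (SE 0.07, adjusted p 0.0249), while shRNF185.1 gave -0.11 (adjusted p 0.21). The mean was lost in 7 of 14 alternatives, among them without batch 1 (-0.19, adjusted p 0.117) and without batch 2 (-0.07, adjusted p 0.349). The call with shRNF185.3 was also lost without batch 1 (-0.21, adjusted p 0.149) and without batch 2 (-0.14, adjusted p 0.103). Of its windows of 75 bases, 10.1% also occur in 3 other genes, so its reads may be split. Sec61a1, the channel subunit itself, had -0.05 (adjusted p 0.283).

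Ssr2, the beta subunit of the same translocon-associated complex, was called between the hairpins and not against control. It ran from 163 CPM through 180 to 198 in control, from 160 through 165 to 191 with shRNF185.1, and from 186 through 188 to 201 with shRNF185.3. All but 1 shRNF185.1 library lay below the lowest shRNF185.3 library. The difference, shRNF185.3 minus shRNF185.1, was 0.18 (SE 0.05, edgeR adjusted p 0.0197), with -0.11 (adjusted p 0.113) and 0.07 (adjusted p 0.317) against control. It was lost without batch 1 (0.18, adjusted p 0.188) and without batch 2 (0.16, adjusted p 0.179), and opposite-strand exons overlap 12.8% of the gene's exonic bases.

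Among the 3 sensors with Xbp1 and Atf6b, 1 of 5 was called, Eif2ak3, which encodes the PERK kinase. It ran from 23.2 CPM through 27.2 to 35.4 in control, from 29.0 through 36.8 to 43.1 with shRNF185.1, and from 31.7 through 35.3 to 40.9 with shRNF185.3. The groups overlapped, with 3 shRNF185.1 and 2 shRNF185.3 libraries above the control range. Set against control, shRNF185.1 gave a log2 difference of 0.39 (SE 0.10, edgeR adjusted p 0.00801), and shRNF185.3 one of 0.34 (SE 0.10, adjusted p 0.0213), and the mean was 0.37 (SE 0.09, adjusted p 0.00482), or 1.29 times control. Within batches the mean was 0.45, 0.02 and 0.64, so it was close to 0 in batch 2. The mean was not called without batch 1 (0.32, adjusted p 0.0912) or without batch 3 (0.23, adjusted p 0.132), and neither were the single hairpins, at 0.30 (adjusted p 0.19) and 0.35 (adjusted p 0.121) without batch 1 and 0.27 (adjusted p 0.129) and 0.19 (adjusted p 0.299) without batch 3.

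The other 2 sensors were close to control. Ern1, the IRE1 kinase and nuclease, ran from 46.6 CPM through 53.3 to 63.9 in control, from 43.2 through 47.8 to 64.8 with shRNF185.1, and from 49.6 through 59.1 to 66.0 with shRNF185.3. The groups overlapped fully, and the mean change was 0.02 (SE 0.09, edgeR adjusted p 0.872). Atf6 ran from 71.8 CPM through 76.8 to 84.4 in control, from 66.8 through 71.7 to 81.4 with shRNF185.1, and from 71.6 through 74.5 to 78.7 with shRNF185.3. These also overlapped, at -0.05 (SE 0.05, adjusted p 0.475).

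Xbp1, the target of IRE1 splicing, ran from 59.6 CPM through 76.5 to 86.4 in control, from 67.1 through 80.0 to 88.4 with shRNF185.1, and from 71.8 through 82.3 to 91.6 with shRNF185.3. The groups overlapped and the mean change was 0.08 (SE 0.08, edgeR adjusted p 0.441). Atf6b, the paralogue of Atf6, fell just outside the threshold at 0.13 (SE 0.05, adjusted p 0.051).

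Downstream of PERK the list held 10 factors, of which 1 rose and 1 fell for the mean of both hairpins. Its central factor, Atf4, ran from 296 CPM through 336 to 358 in control, from 293 through 319 to 334 with shRNF185.1, and from 310 through 331 to 362 with shRNF185.3. The groups overlapped and the mean change was -0.04 (SE 0.05, edgeR adjusted p 0.502). ATF4 is regulated mainly in translation, which was not measured.

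Ppp1r15b, the constitutive subunit that brings a phosphatase to eIF2α, fell. It ran from 134 CPM through 144 to 149 in control, from 121 through 125 to 128 with shRNF185.1, and from 116 through 124 to 131 with shRNF185.3. No hairpin library reached the lowest control value. The log2 change was -0.18 (SE 0.04, edgeR adjusted p 0.0013) and -0.20 (SE 0.04, adjusted p 0.000754), and the mean was -0.19 (SE 0.03, adjusted p 0.00021). The mean was called in all 14 alternatives, while the single hairpins, at -0.16 each without batch 1, were not (adjusted p 0.0692 and 0.0612). Opposite-strand exons overlap 11.4% of its exonic bases. Ppp1r15a, the stress-induced subunit (GADD34), had -0.02 (SE 0.12, adjusted p 0.938).

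Sesn2 was the member with the largest rise called with a single hairpin. It ran from 8.21 CPM through 11.5 to 13.5 in control, from 10.7 through 13.2 to 15.5 with shRNF185.1, and from 13.5 through 16.7 to 19.4 with shRNF185.3. The shRNF185.3 libraries lay above the control range, the lowest by a narrow margin, while the shRNF185.1 libraries overlapped the control range. For shRNF185.3 the log2 difference from control was 0.55 (SE 0.13, edgeR adjusted p 0.0036) and for shRNF185.1 it was 0.23 (SE 0.13, adjusted p 0.193), but the difference between the hairpins, 0.32, was itself not called (adjusted p 0.116). The mean was 0.39 (SE 0.11, adjusted p 0.0126), and 0.54, -0.01 and 0.68 in batches 1, 2 and 3. The mean was not called without batch 1 (0.32, adjusted p 0.0835) or batch 3 (0.25, adjusted p 0.238), and shRNF185.3 alone was not without batch 3 (0.36, adjusted p 0.148).

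Ddit3, which encodes the stress factor CHOP, had overlapping groups and no call in the comparisons between them. It ran from 10.7 CPM through 16.2 to 21.2 in control, from 14.0 through 18.3 to 26.7 with shRNF185.1, and from 14.7 through 21.9 to 26.3 with shRNF185.3. The mean change was 0.33 (SE 0.16, edgeR adjusted p 0.121). Without batch 2 it was 0.66 and called (adjusted p 0.00684), and without the control libraries of batch 2 alone, an analysis added after the data were seen, it was 0.56 and called (adjusted p 0.0189).

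Trib3, a pseudokinase induced by CHOP and ATF4 that feeds back on them, ran from 8.52 CPM through 13.2 to 23.6 in control, from 6.05 through 12.3 to 16.4 with shRNF185.1, and from 8.15 through 14.7 to 21.0 with shRNF185.3. The groups overlapped (adjusted p 0.681 for the mean). Nupr1, a small stress-induced chromatin protein, ran from 30.3 CPM through 48.3 to 71.6 in control, from 20.01 through 34.5 to 43.7 with shRNF185.1, and from 30.4 through 38.1 to 57.6 with shRNF185.3. Its mean change of -0.45 (SE 0.19, edgeR adjusted p 0.0831) was the largest of the 42 genes in size and was not called. Chac1, which degrades glutathione, had 0.01 (SE 0.19, adjusted p 0.98).

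Of the 5 ATF4-linked enzymes of amino acid and one-carbon metabolism, Psat1 fell with both hairpins and Mthfd2 with shRNF185.1. Psat1 encodes the aminotransferase of serine synthesis. It ran from 400.4 CPM through 493 to 517 in control, from 307 through 356 to 374 with shRNF185.1, and from 342 through 384 to 393 with shRNF185.3. No hairpin library reached the lowest control value. The log2 change was -0.48 (SE 0.06, edgeR adjusted p 1.19e-05) and -0.35 (SE 0.06, adjusted p 0.000334), and the mean was -0.42 (SE 0.05, adjusted p 8.42e-06), a level 0.749 times control. The mean was -0.45, -0.23 and -0.57 in batches 1, 2 and 3 and was called in all 14 alternatives.

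The other enzymes of serine and asparagine supply were not called. Phgdh, the first enzyme of serine synthesis, had a mean change of -0.07 (SE 0.11, edgeR adjusted p 0.639), though 35.8% of its windows of 75 bases also occur in 13 other genes, mostly pseudogenes, so its counts are uncertain. Shmt2, the mitochondrial enzyme that splits serine, had 0.00 (SE 0.11, adjusted p 0.984), and Asns, asparagine synthetase, -0.03 (SE 0.08, adjusted p 0.814).

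Mthfd2, a mitochondrial enzyme of the folate pathway, moved apart in the 2 hairpins. It ran from 58.0 CPM through 74.1 to 84.7 in control, from 56.5 through 59.6 to 70.6 with shRNF185.1, and from 71.4 through 79.6 to 94.2 with shRNF185.3. The 2 hairpin groups did not overlap, and both overlapped the control range. Set against control, shRNF185.1 gave a log2 difference of -0.25 (SE 0.08, edgeR adjusted p 0.0242), and shRNF185.3 one of 0.15 (SE 0.08, adjusted p 0.191). The difference between the hairpins was 0.40 (SE 0.08, adjusted p 0.00208), and 0.47, 0.27 and 0.45 within batches. Without batch 1 neither the difference (0.36, adjusted p 0.0973) nor the fall (-0.19, adjusted p 0.324) was called, and without batch 3 the fall was not (-0.17, adjusted p 0.288).

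**Figure D3:**
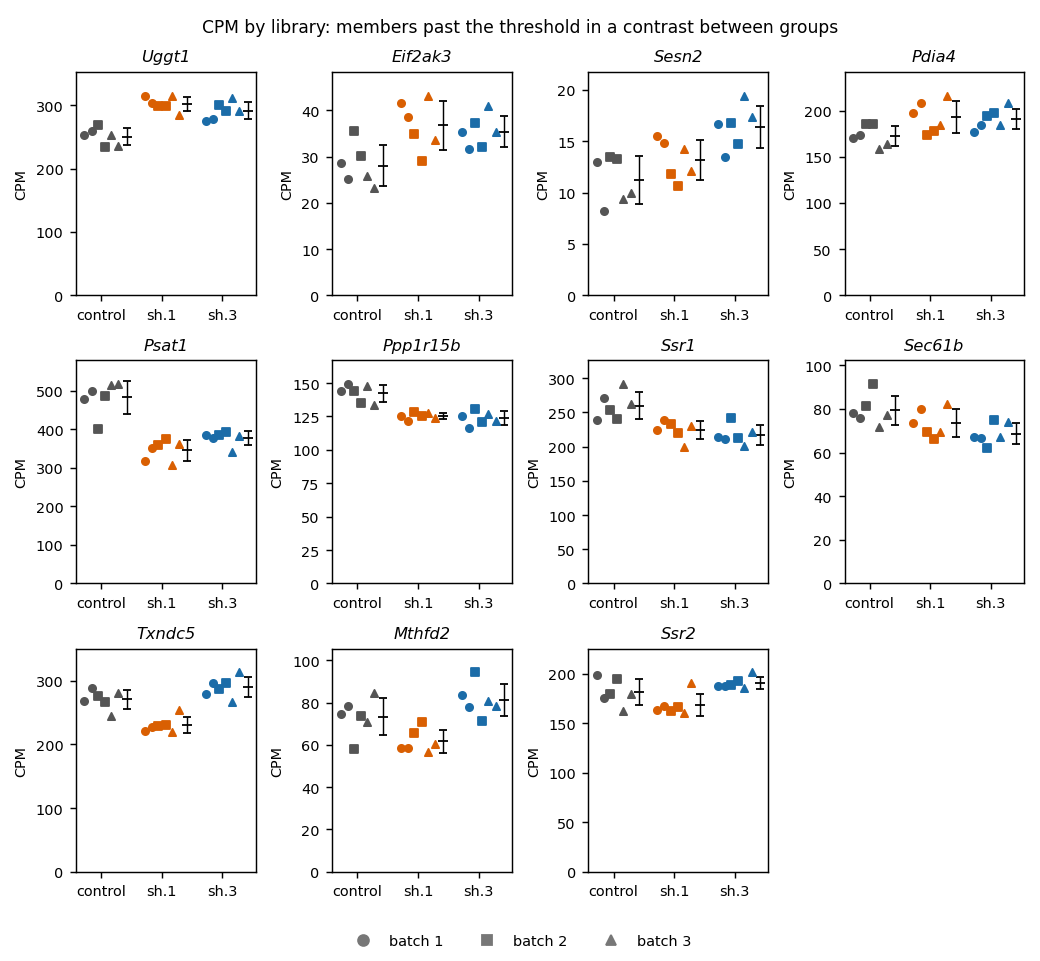
CPM (axes from 0) in each of the 18 libraries for the 11 genes called in a comparison between groups, with control in grey, shRNF185.1 (sh.1) in orange and shRNF185.3 (sh.3) in blue. Marker shapes give the batch, and black bars the mean and SD of 6 libraries. For Psat1 every hairpin library is at or below 393 and every control library at or above 400.4, while for Txndc5 and Mthfd2 the 2 hairpin groups stand apart.

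In the direct comparison of shRNF185.3 with shRNF185.1, 3 of the 42 genes were called, Txndc5, Mthfd2 and Ssr2, beside 14.7% of all genes. All 3 were higher with shRNF185.3, beside 7.72% of all genes, and 0 lower, beside 6.94%. At an unadjusted p under 0.05 there were 7. The share of all genes at that looser limit is not given here, and the 14.7% is not its background. The median difference without sign was 0.0839 for the members and 0.107 for all genes, while the hairpins lowered Rnf185 to means of 5.81 and 5.80 CPM.

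The knockdown effect of 10 members differed between the 3 batches, a share of 23.8% beside 14.2% of all genes. The test asked, per gene, whether the mean of both hairpins minus control was the same in each batch (edgeR quasi-likelihood, adjusted over all 14309 genes). The 10 were Hspa5, P4hb, Sdf2l1 and Creld2 of the folding genes, Xbp1, and Ddit3, Trib3, Ddit4, Nupr1 and Cebpb of the PERK branch. None of them was called in a comparison between groups. Those fits used a mean per group without batch, so an effect that differs between batches widens the spread and makes a call less likely. The share of all genes called in both kinds of test is not given here. That stress genes differed in direction between batches was known from earlier results of these data, so the values per gene describe that pattern and do not add separate evidence of it.

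The effect was higher in batch 3 than in batch 2 for all 10, by 0.47 (Hspa5) to 1.75 (Nupr1) on the log2 scale. In batch 3 all 10 were above control, and in batch 2 all except Cebpb were below it. Over the 42 genes, 34 (81.0%) had a lower effect in batch 2 than in batch 3, where 51.5% of all genes did. The median effect of the PERK branch was -0.05, -0.33 and 0.61 in batches 1, 2 and 3, while that of the 5 enzymes was -0.23, 0.22 and -0.18.

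Nupr1 had the widest difference. In control it stood at 55.8 and 40.7 CPM in batch 1, 69.4 and 71.6 in batch 2, and 30.3 and 34.5 in batch 3. In the same order of batches the shRNF185.1 libraries stood at 43.7 and 34.6, at 30.6 and 20.01, and at 41.5 and 34.5. Those of shRNF185.3 stood at 42.4 and 30.4, at 33.8 and 31.0, and at 57.6 and 45.4. The control libraries of batch 2 were thus the highest of all 18. The effect was -0.35, -1.32 and 0.44 in batches 1, 2 and 3 (edgeR adjusted p 0.00278).

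P4hb gave a like order at a far higher level. Its control libraries stood at 1190 and 1113 CPM in batch 1, 1353 and 1692 in batch 2, and 998 and 957 in batch 3. The shRNF185.1 libraries stood at 1425 and 1446, at 1056 and 1040, and at 1345 and 1318. Those of shRNF185.3 stood at 1215 and 1198, at 1141 and 1260, and at 1402 and 1674. In batch 2 both control libraries were above all 4 hairpin libraries, and in batch 3 below them. The effect was 0.20, -0.43 and 0.55 (edgeR adjusted p 0.00134).

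Sdf2l1, Ddit4 and Trib3 were arranged in the same way. Over all batches Sdf2l1 ran from 17.5 CPM through 27.3 to 39.9 in control, from 20.6 through 28.6 to 35.7 with shRNF185.1, and from 20.4 through 23.0 to 32.9 with shRNF185.3. Ddit4 ran from 118 through 162 to 227, from 116 through 154 to 187, and from 146 through 183 to 243 CPM in the same groups, so in both genes the groups overlapped. For Sdf2l1 the control libraries were at 29.8 and 39.9 CPM in batch 2 and 17.5 and 21.0 in batch 3, and the effect was -0.08, -0.62 and 0.62 in the 3 batches (edgeR adjusted p 0.00732). For Ddit4, an inhibitor of mTORC1 signalling, they were at 203 and 227 in batch 2 and 124 and 133 in batch 3, and the effect was 0.23, -0.60 and 0.54 (adjusted p 0.00797). In both genes the control libraries of batch 3 were lower than all hairpin libraries of that batch. For Trib3 they were at 16.9 and 23.6 in batch 2 and 8.52 and 9.16 in batch 3, and the effect was -0.01, -1.02 and 0.69 (adjusted p 0.0407).

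The branch factors Ddit3 and Xbp1 also swung. Ddit3 was at 19.8 and 21.2 CPM in the control libraries of batch 2 and at 11.5 and 10.7 in those of batch 3, and its effect was 0.29, -0.27 and 1.05 (edgeR adjusted p 0.0192). Xbp1 was at 81.2 and 86.4 and at 73.7 and 59.6, and its effect was 0.08, -0.17 and 0.35 (adjusted p 0.0198). Hspa5 had an effect of 0.09, -0.20 and 0.26 (adjusted p 0.0415) and Creld2 of -0.07, -0.33 and 0.16 (adjusted p 0.0406). Creld2 ran from 70.6 CPM through 80.8 to 93.7 in control, from 67.4 through 74.1 to 86.4 with shRNF185.1, and from 72.1 through 76.5 to 87.8 with shRNF185.3. Within each of these genes the sign of the effect differed between batches 2 and 3.

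Cebpb, which encodes the transcription factor C/EBPβ, was the exception in order. Its effect was positive in batch 2 as well as batch 3, at -0.26, 0.12 and 0.72 in the 3 batches (edgeR adjusted p 0.0306). It ran from 76.6 CPM through 110 to 164 in control, from 116 through 141 to 174 with shRNF185.1, and from 102 through 114 to 135 with shRNF185.3, and the groups overlapped. Opposite-strand exons overlap 20.7% of its exonic bases.

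**Figure D4:**
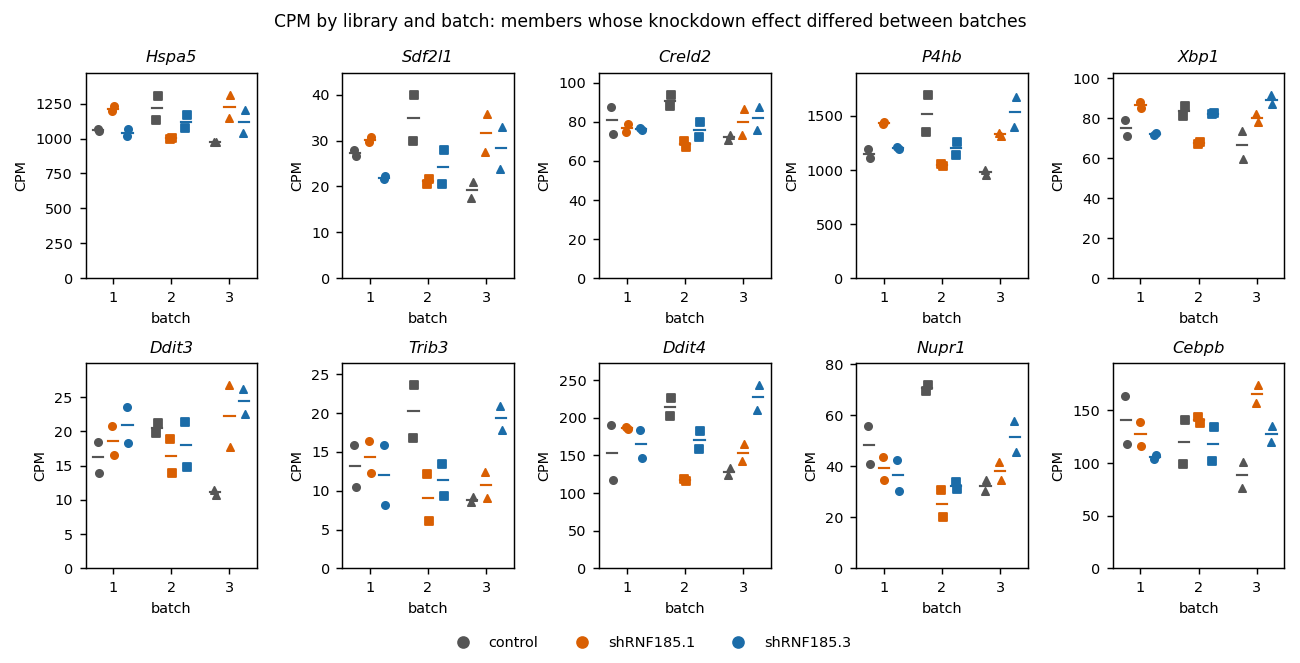
CPM in each library (points) and mean of 2 (lines) by batch for the 10 genes whose knockdown effect differed between batches, with control in grey, shRNF185.1 in orange and shRNF185.3 in blue; axes start at 0. In batch 3 the control mean is below both hairpin means in all 10 panels, and in batch 2 it is above both in all panels other than Cebpb.

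Which group moved cannot be told apart in these values. The authors' batch adjustment left the means of the batches over all groups within 0.08 of each other on the log2 scale for every member, so a control that is high in a batch goes with hairpin libraries that are low there. Control was higher in batch 2 than in batch 3 for 34 of the 42 genes. With the batch means levelled, this largely restates the lower effect in batch 2 and is not a separate observation. The share of all genes with such a control order is not given here. The control libraries of batch 2 had totals of 24067000 and 43379662 counts, the latter the highest of the series, and the median effect on the epithelial markers was -0.76, -1.49 and -0.79 in the 3 batches. Their part in the result was not tested. Without batch 2, the calls among the 42 genes numbered 16 for shRNF185.1, 8 for shRNF185.3 and 14 for both together, of which 8 were higher and 6 lower. The same analyses called 35.7%, 26.8% and 37.7% of all genes, so the members' share was no longer below the background with shRNF185.1. The genes gained for the mean were Asns, Ddit3, Hspa5, Mthfd2, P4hb, Pdia6 and Phgdh, and Sec61b was lost. Without the control libraries of batch 2 alone, the mean gave 10 calls, 7 higher and 3 lower. The share of all genes called in that analysis is not given here, so these calls have no background beside them.

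Of the genes with promoter letters for TGATGNAA, Asns and Chac1 were called in no test, Nupr1 and Trib3 in the batch test and Txndc5 between groups. Of the 7 with the ER stress element, Hspa5 and Creld2 were called in the batch test and the other 5 in none. Of all genes, 14.2% were called in the batch test, and sets this small do not tie the calls to a motif. Across the 4 comparisons and the batch test, 21 of the 42 genes were called in none, beside 47.4% of all genes.

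The other genes of these pathways were read from lists that do not hold any of the 42. Of 15 regulators and degradation genes of the unfolded protein response that were tested (of 17), 6 rose and 0 fell for the mean of both hairpins, with a median of 0.08. For all genes in that comparison, 16.1% rose and 16.8% fell, the background for this list and the next 4. By batch the median effect of these 15 genes was not even, at 0.12, -0.02 and 0.30 in batches 1, 2 and 3. The batch test called 3 of the 15 (20%), beside 14.2% of all genes. Herpud1, an ER membrane scaffold of degradation, had means of 49.9 CPM in control, 71.5 with shRNF185.1 and 81.5 with shRNF185.3, a mean change of 0.61 (SE 0.07, edgeR adjusted p 1.37e-06). Wfs1, an ER membrane protein of calcium balance, had 18.01, 24.5 and 30.6 CPM, a change of 0.60 (SE 0.07, adjusted p 3.03e-06). Both changes were above the largest one called among the 42 genes, that of Sesn2 with shRNF185.3.

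Of 24 other folding and oxidation genes, 6 rose and 1 fell, with a median of 0.04, and the share called, 29.2%, was below the 32.9% of all genes. Dnajc1, a membrane J-domain protein, rose by 0.14 (SE 0.03, edgeR adjusted p 0.00101), with 0.22 (adjusted p 6.45e-05) for shRNF185.1 and 0.06 (adjusted p 0.182) for shRNF185.3. Mesd, a chaperone of lipoprotein receptors, rose by 0.18 (SE 0.05, adjusted p 0.00507), with 0.10 (adjusted p 0.175) and 0.26 (adjusted p 0.000924). The difference between the hairpins was called for both genes (adjusted p 0.00276 and 0.0399). Fkbp2, a prolyl isomerase, fell by 0.19 on the log2 scale (SE 0.05, adjusted p 0.00592).

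Of 29 other translocon, signal peptidase and oligosaccharyltransferase genes, 1 rose and 8 fell, with a median of -0.03, and the share called, 31.0%, was near that of all genes. The signal peptidase subunits Sec11c and Spcs3 were the lowest by p: Sec11c had means of 47.0, 36.4 and 33.6 CPM in control, shRNF185.1 and shRNF185.3 (change -0.43, SE 0.05, edgeR adjusted p 8.04e-06), and Spcs3 had 190, 162 and 132 CPM (change -0.38, SE 0.07, adjusted p 0.000312). Srp14, of the signal recognition particle, was the 1 that rose, by 0.12 (SE 0.04, adjusted p 0.0392).

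Of 34 tested genes of the integrated stress response outside the 42 (of 35), 4 rose and 3 fell, with a median of 0.00. Atf5, a relative of Atf4, rose by 0.37 (SE 0.08, edgeR adjusted p 0.00139) and Pycr1, of proline synthesis, by 0.43 (SE 0.09, adjusted p 0.00149). For Pycr1, shRNF185.1 gave 0.15 (adjusted p 0.307) and shRNF185.3 gave 0.71 (adjusted p 5.44e-05). Tars, the threonyl tRNA synthetase, changed by -0.14 (SE 0.03, adjusted p 0.00351) and Eif2s1, which encodes eIF2α itself, by -0.23 (SE 0.07, adjusted p 0.0172). For Tars the hairpins, in that order, gave -0.25 (adjusted p 0.000145) and -0.04 (adjusted p 0.462), and the hairpins differed in Pycr1 (adjusted p 0.00114) and Tars (adjusted p 0.0018). Between the hairpins, 9 of these 34 genes were higher and 1 lower with shRNF185.3, beside 7.72% and 6.94% of all genes.

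Of 12 cytosolic heat shock genes, 3 rose and 0 fell, with a median of -0.07, so the list's median and its calls differed in sign. Hspb1, the small heat shock protein, rose by 0.75 (SE 0.09, edgeR adjusted p 2.33e-06) from 36.2 CPM in control to 59.0 and 63.1, and its cochaperone partner Bag3 by 0.23 (SE 0.04, adjusted p 0.000432). The knockdown effect of 5 of the 12 differed between batches, beside 14.2% of all genes.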

How the data were processed

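Polyadenylated RNA of 18 MPC3 libraries was read in single 75-base reads. Per the labels, the deposited tables were adjusted for batch by ComBat-Seq, and the submitters' processing notes name cutadapt 2.3, STAR 2.7.0d, RSEM 1.3.1 and mm10; whether that adjustment was told the groups is not given in the sources used here. The deposited table was handled by the rules for expected counts, although whole counts had been assumed when the test was chosen, since 0.466% of values are not whole (0 among the 42 genes), and were rounded. The authors' CPM are a scaled signal (column sums 969986 to 1026394) and are printed as deposited. In R 4.3.3 with edgeR 4.0.16, filterByExpr (minimum count 10) kept 14309 genes, TMM scaled the libraries, and a mean per group was fitted to all 18 libraries; the batch test used a mean per group and batch. Genes were called at an adjusted p under 0.05, by edgeR's quasi-likelihood test. Standard errors came from the fold change and F. Alternatives used limma 3.58.1, DESeq2 1.42.0, other scaling, filters, designs and left-out batches. The tests were checked on simulated counts, drawn independently for each library. The simulation held no batch adjustment and no link between replicate numbers, so it does not show how the tests behave with those. Symbols matched 99.1% of identifiers, and positions and exonic lengths are of GENCODE M21. No 2 libraries of a group looked like a duplicate (chi-square per gene 7.64 to 84.4 over 45 pairs). The members, lists and tests were chosen with earlier results of these data known. Values by group are given for members called in any test and for Hspa5, Xbp1, Ern1, Atf6, Eif2ak3, Atf4, Ddit3 and Trib3, and from each list the called genes of smallest p, at most 2 a direction. Some marker genes are not reported here.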

Additional observations from a re-analysis of the deposited data

Results flagged for a closer look

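In 7 of 126 groups of 6 libraries, the highest or lowest library stood apart from the others by Dixon's 95% criterion. Chance gives about 1 in 20, or 6.3. Pdia3 was at 662 CPM in control replicate 6 (next 744), and Psat1 was at 400.4 in control replicate 3 (next 478). With shRNF185.3, Dnajc10 was at 157 in replicate 3 (next 138), Hyou1 at 258 in replicate 6 (next 237) and Psat1 at 342 in replicate 5 (next 379). With shRNF185.1, Ssr2 was at 191 (next 167) and Txndc5 at 255 (next 230.0), both in replicate 6.

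The hairpins differed from each other by edgeR's quasi-likelihood test in Mthfd2 (0.40, adjusted p 0.00208), Ssr2 (0.18, adjusted p 0.0197) and Txndc5 (0.34, adjusted p 9.36e-05), as log2 of shRNF185.3 minus shRNF185.1. The knockdown effect differed between batches in 10 genes. As batch 3 minus batch 2, on the log2 scale, it was 0.47 for Hspa5, 0.99 for P4hb, 1.27 for Sdf2l1, 0.50 for Creld2, 0.51 for Xbp1, 1.32 for Ddit3, 1.70 for Trib3, 1.15 for Ddit4, 1.75 for Nupr1 and 0.60 for Cebpb.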

How the results depend on the processing

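Over 495 recomputed values of the named genes, 446 kept their direction and side of the threshold, 39 lost the call, 3 gained it and 7 changed sign. The sign changes were all in uncalled means: without batch 3, Hspa5 was -0.0557, Xbp1 -0.0415 and Ern1 -0.0834; with the GC and length offset Ern1 was -0.0460; without batch 2 Atf4 was 0.00556 and Trib3 0.35; and without the control libraries of batch 2, chosen after seeing the data, Trib3 was 0.21.

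Counts of called members moved by over 1.5 times as follows. Without batch 1 they were 4 with shRNF185.1, 4 with shRNF185.3, 5 for the mean and 1 between hairpins. Without batch 2 they were 16 with shRNF185.1, 14 for the mean and 5 between hairpins. The GC and length offset gave 11 with shRNF185.1 and 6 between hairpins, and libraries summed by group and batch gave 5 for the mean. At an absolute log2 change of at least 0.5 they were 0, 1 (Sesn2), 0 and 0 in the same order. The batch test called 16 without a filter beyond 1 count. Over all genes the counts without batch 1 were 2207, 2120, 2672 and 753, and at the 0.5 limit 1493, 1455, 1418 and 671. Such counts are not given for the offset, the summed libraries, the unfiltered batch test or the hairpin comparison without batch 2. The members' counts in those settings therefore have no background beside them, and whether the members moved more than all genes was not assessed here.

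With the replicate number as a block, 6, 7, 7 and 3 members were called, Mthfd2 being lost with shRNF185.1 and Pdia4 for the mean, and the batch test called 18 members and 4013 genes. For the comparisons between groups the all-gene counts with the block are not given here, so those member counts have no background beside them. Deviations of same-numbered libraries correlated at -0.0144 on average (18 pairs, 9671 genes), those of the other number of the batch at -0.434. Same-numbered libraries were thus more alike than those of the other number. Because the batch means were levelled, deviations of different groups within a batch tend to oppose each other. The value of -0.0144 therefore does not show that the numbers are unpaired, and the main fits did not use a pairing. Precision was lowest for Trib3, Chac1 and Nupr1, with standard errors of the mean change of 0.24, 0.19 and 0.19.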

Other observations

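Within each of the 9 pairs of libraries that share a group and a batch, the odd-numbered library was above the even-numbered one in 9 of 9 for Ern1, Atf6, Eif2ak3 and Ppp1r15a, and in 0 of 9 for Pdia4 and Phgdh. It was above in 1 of 9 for Psat1, Shmt2, Sdf2l1, Txndc5 and Pdia6, and in 8 of 9 for Ddit3, Ppp1r15b and Sesn2. These 14 genes are 33.3% of the 42, and 26.6% of all genes tested had such a count (at most 1 or at least 8 of 9). If odd and even numbers meant nothing, so one-sided a count would be expected in far fewer genes than that. The order thus runs through the series and is not particular to the 42, and the main fits did not use it. These genes were named after their values were seen, and the labels do not say what the odd and even numbers stand for.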
